A study of Mus musculus with 8 samples.

Results

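The genes described here are the extracellular and cell surface part of Wnt signalling in the mouse heart at embryonic day 9.5. They are all genes of the count table whose symbol is that of a Wnt ligand (Wnt, 19 genes), a Frizzled receptor (Fzd, 10 genes), an Lrp5 or Lrp6 co-receptor (2 genes), a secreted Frizzled-related protein (Sfrp, 4 genes), a Dickkopf protein (Dkk, 4 genes) or an R-spondin (Rspo, 4 genes), which gave 43 of 49315 genes. RNA sequencing was done on hearts dissected from C57BL/6 embryos, with 4 male and 4 female libraries, and the question was how the sexes differ. No transgene, deletion or treatment is named in the labels. Sex was genotyped through Sry in other tissue of each embryo, and neither pooling of embryos nor shared litters is recorded. Each p-value therefore speaks only of the spread among the libraries, which may in part be technical.

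In the canonical branch, a Wnt ligand binds a Frizzled receptor together with Lrp5 or Lrp6, which stops the destruction of beta-catenin and lets it act with TCF and LEF factors in the nucleus. Other Wnt ligands act through Frizzled without beta-catenin on cell polarity and movement. Sfrp proteins bind ligands outside the cell, Dkk1 and Dkk2 block the Lrp co-receptors, and R-spondins keep receptors at the surface by removing the ligases Znrf3 and Rnf43. In the forming heart, canonical signals maintain progenitor cells of the second heart field, and polarity signals through Wnt5a and Wnt11 shape the outflow tract.

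Libraries held 21778953 to 39773169 counts in males and 20105913 to 51134291 in females. Xist stood at 0.340 to 0.612 CPM in males and 225 to 277 CPM in females, so every library carried the pattern of its labelled sex. The summed level of 10 cardiomyocyte genes was 40559 to 63568 CPM in males and 37381 to 47316 CPM in females. Male replicate 2 stood apart on the first principal component of all tested genes (65.4% of the variance), at 54.1, while the other 7 libraries lay between -31.1 and 12.5. It also had the lowest share of mitochondrial counts, 0.707%, against 0.999% to 1.72% elsewhere. CPM, the usual depth-scaled counts, are here scaled with the trimmed mean of M-values (TMM) and serve to compare libraries. TPM, the matching unit for transcripts, also divide by gene length and serve to compare genes. Counts of Male replicate 2 lay more on short genes (mean inverse length 0.545 per kb, against 0.387 to 0.455 per kb), and the members summed to 357 TPM there against 470 to 560 TPM in the other libraries, but to 782 CPM against 749 to 791 CPM. A low TPM in Male replicate 2 is therefore shared by most members and is not read as a change.

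RefSeq windows on GRCm38.p6, running from 250 bases before to 50 bases after a transcription start, were found for 27 of the 43 members, 30 windows in all. The letters of a TCF/LEF site (CTTTG followed by AT, TT, TA or AA, on either strand) were in 5 of the 30 windows (16.7%) and in 16.9% of 32851 windows of all genes. Those of a GATA site (AGATAA or TGATAA, on either strand; the second can share bases with a TCF/LEF match) were in 4 of 30 (13.3%) and in 18.6% of all windows, while GGGCGG, the GC box, was in 22 of 30 (73.3%) and in 35.7%. The median GC content was 69.85% in the members' windows and 52.7% over all. A match is only a match of letters. Shown first are the windows of Wnt2 and Sfrp5, the most abundant ligand and the most abundant Sfrp gene per length, with GATA letters in capitals, printed 5′ to 3′ on the gene's strand. The match of Wnt2 began at base -9 from the start, and those of Sfrp5 at -236 and -180.
Wnt2 (chr6:18030396-18030695, minus strand): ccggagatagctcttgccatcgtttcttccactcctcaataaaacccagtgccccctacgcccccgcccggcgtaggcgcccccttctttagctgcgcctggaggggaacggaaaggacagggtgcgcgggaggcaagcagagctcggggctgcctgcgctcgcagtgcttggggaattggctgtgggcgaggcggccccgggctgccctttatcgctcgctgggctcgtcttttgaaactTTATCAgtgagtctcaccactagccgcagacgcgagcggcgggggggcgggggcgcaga
Sfrp5 (chr19:42202203-42202502, minus strand): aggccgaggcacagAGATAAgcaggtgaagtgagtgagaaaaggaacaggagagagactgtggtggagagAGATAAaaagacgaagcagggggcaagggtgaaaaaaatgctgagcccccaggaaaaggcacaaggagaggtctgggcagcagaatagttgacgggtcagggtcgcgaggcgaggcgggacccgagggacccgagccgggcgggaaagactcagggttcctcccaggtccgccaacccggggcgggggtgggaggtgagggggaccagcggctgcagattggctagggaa
Shown next are the windows of the members with a mean of at least 1 CPM whose first listed start holds TCF/LEF letters, again in capitals. The match began at -51 in Wnt11 and at -130 in Fzd7, and the pair in Dkk1, an inhibitor that is itself a known target of canonical signalling, at -117 and -98.
Wnt11 (chr7:98834862-98835161, plus strand): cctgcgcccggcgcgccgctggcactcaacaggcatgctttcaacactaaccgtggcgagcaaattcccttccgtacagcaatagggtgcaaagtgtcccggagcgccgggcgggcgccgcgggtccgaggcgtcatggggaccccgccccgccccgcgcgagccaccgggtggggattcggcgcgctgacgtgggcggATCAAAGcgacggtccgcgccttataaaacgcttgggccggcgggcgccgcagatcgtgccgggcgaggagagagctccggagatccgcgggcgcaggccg
Fzd7 (chr1:59481897-59482196, plus strand): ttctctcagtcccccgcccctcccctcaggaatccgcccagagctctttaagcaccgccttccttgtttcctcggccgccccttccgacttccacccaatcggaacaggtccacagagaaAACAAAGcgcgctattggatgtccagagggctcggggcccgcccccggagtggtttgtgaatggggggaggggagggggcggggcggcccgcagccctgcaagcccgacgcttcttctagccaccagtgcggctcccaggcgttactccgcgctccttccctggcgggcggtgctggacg
Dkk1 (chr19:30549447-30549746, minus strand): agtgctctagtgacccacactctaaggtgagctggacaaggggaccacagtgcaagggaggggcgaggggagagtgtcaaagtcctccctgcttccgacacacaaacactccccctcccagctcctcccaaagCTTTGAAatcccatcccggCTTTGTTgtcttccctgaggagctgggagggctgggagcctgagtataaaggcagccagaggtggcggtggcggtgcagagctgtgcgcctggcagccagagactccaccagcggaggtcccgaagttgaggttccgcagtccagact

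Wnt2 was the leading ligand. Per length it averaged 89.1 ± 16.2 TPM (SD, n = 8), 58.8% of the mean ligand TPM, and it was above the next ligand, Wnt11, in 8 of 8 libraries. Wnt2 (chromosome 6, 17988940 to 18030585 on GRCm38), a canonical ligand of the inflow side of the heart, had 83.3, 103, 58.0 and 82.1 CPM in male replicates 1 to 4, against 110.4, 96.5, 93.8 and 67.9 CPM in female replicates 1 to 4. Female replicate 1 and Male replicate 2 were highest and Male replicate 3 lowest, and the sexes overlapped. Wnt11, a polarity ligand of the outflow tract, had 54.7, 27.5, 44.1 and 43.2 CPM in male replicates 1 to 4, against 37.8, 45.5, 46.3 and 47.5 CPM in female replicates 1 to 4. Its lowest library was Male replicate 2 and its highest Male replicate 1. Wnt4, known from kidney tubules and the female gonad, had 28.7, 58.2, 25.3 and 29.3 CPM in male replicates 1 to 4, against 34.8, 29.1, 33.8 and 20.6 CPM in female replicates 1 to 4. Male replicate 2 stood above all others, and the remaining 3 males lay within the female range.

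Wnt5a, the other polarity ligand of the outflow tract, averaged 12.2 ± 3.93 TPM (SD, n = 8). It was below Wnt4 in 6 of 8 libraries and above Wnt5b in all 8. Its levels were 41.3, 25.3, 49.5 and 41.3 CPM in male replicates 1 to 4, against 37.3, 36.7, 34.3 and 50.0 CPM in female replicates 1 to 4. Female replicate 4 and Male replicate 3 were highest and Male replicate 2 lowest. The close relative Wnt5b was far lower and steadier, at 3.37, 3.64, 3.80 and 3.57 CPM in male replicates 1 to 4, against 3.26, 3.26, 3.14 and 3.86 CPM in female replicates 1 to 4. Wnt6, a ligand of surface ectoderm in the embryo, was the most uneven of the members with a mean of at least 1 CPM, with a coefficient of variation of 88.9%. It had 2.11, 3.21, 0.0884 and 0.767 CPM in male replicates 1 to 4, against 1.42, 1.45, 6.39 and 2.01 CPM in female replicates 1 to 4, or 2 to 126 counts per library. Female replicate 3 was highest and Male replicate 3 nearly without counts. Wnt2b, which acts with Wnt2 in specifying the lung from the foregut, had 1.60, 2.59, 2.08 and 1.63 CPM in male replicates 1 to 4, against 1.28, 1.01, 1.42 and 1.77 CPM in female replicates 1 to 4. Male replicate 2 was highest and Female replicate 2 lowest, and the ranges overlapped.

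The other 12 ligands were near or below the limit of the data, with means under 1 CPM. Wnt9a and Wnt9b passed the filter on low counts with means of 0.895 and 0.807 CPM and ranges of 0.427 to 1.70 and 0.354 to 1.32 CPM, both with males and females overlapping; Wnt9b is known as a ligand of endocardium and kidney ducts. Wnt3, Wnt7b, Wnt7a, Wnt16, Wnt8a and Wnt10a had 57, 61, 26, 37, 15 and 11 counts over all 8 libraries. Wnt8b had 0 counts in each male and 2, 1, 1 and 1 in female replicates 1 to 4, so its groups did not overlap. It was under the filter on low counts, and with no such filter it was not called either. Wnt10b had 0 counts in males and 2 in females, and Wnt3a 0 and 1. A count of 0 over the 119263879 male counts allows up to 0.0252 CPM (3 counts, counting error only). Wnt1 had 0 of 277856671 counts, which allows up to 0.0108 CPM.

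Several Wnt genes lie side by side on GRCm38 with no gene of the table between them, and per length their mean levels were unequal. Wnt6 and Wnt10a, 6194 bases apart on chromosome 1, averaged 2.21 and 0.0382 TPM over 8 libraries. Wnt9a and Wnt3a, 16176 bases apart on chromosome 11, averaged 0.663 and 0.00229 TPM, and Wnt9b and Wnt3, 24329 bases apart on the same chromosome, 0.410 and 0.146 TPM. Wnt10b and Wnt1, 11707 bases apart on chromosome 15, had only 2 and 0 counts.

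**Figure D1:**
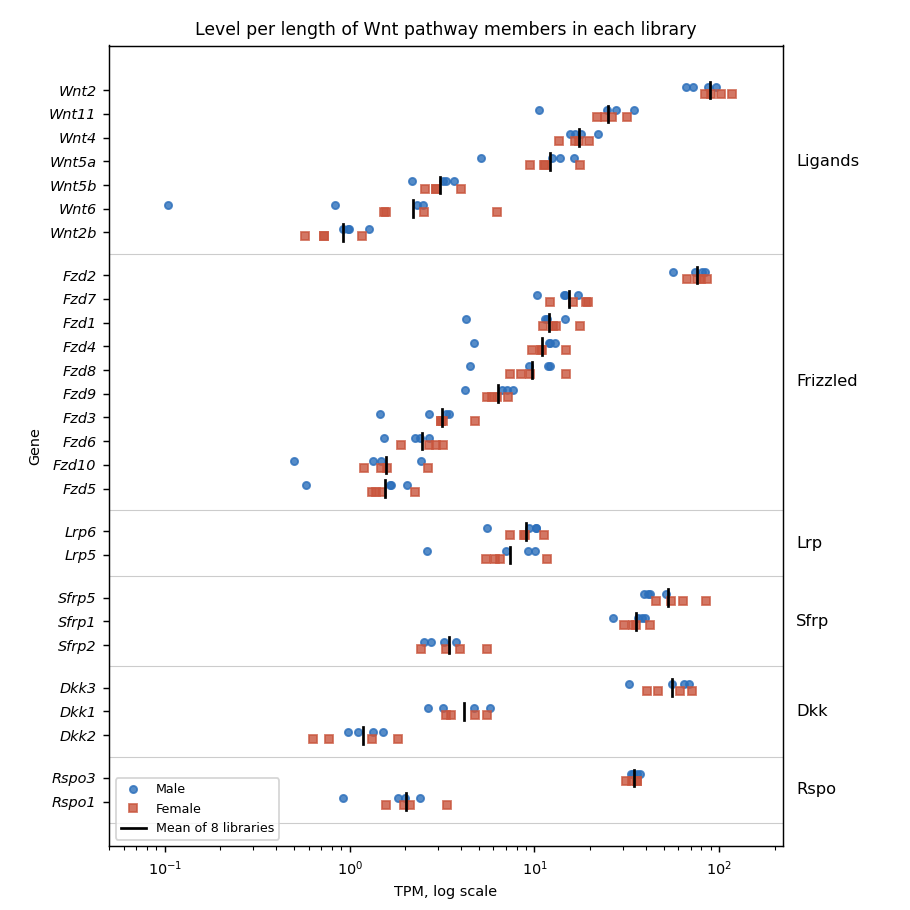
Level per length (TPM, log axis) of the 27 members with a mean of at least 1 CPM, grouped by role, in each male (circles) and female (squares) library, with a line at the mean of all 8. Wnt2 and Fzd2 lead the ligands and receptors, Male replicate 2 is often the lowest point, and male and female points overlap for every gene.

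Fzd2 was the leading receptor, with 54.3% of the mean Frizzled TPM and a share of 49.8% to 63.6% in single libraries. Fzd2 (chromosome 11, 102604396 to 102608058) averaged 75.3 ± 9.69 TPM (SD, n = 8) and was above Fzd7 in all 8 libraries. In CPM it was the steadiest of the 27 members, with a coefficient of variation of 4.76%, at 117, 129.7, 114 and 115 CPM in male replicates 1 to 4, against 122, 116, 114 and 114 CPM in female replicates 1 to 4. All libraries lay within a narrow band in CPM, with Male replicate 2 at its top. In TPM that library was instead the lowest, at 56.1 TPM against 67.1 to 85.6 TPM. Fzd7, a receptor of stem and progenitor cells, had 30.0, 29.7, 25.6 and 27.8 CPM in male replicates 1 to 4, against 36.9, 30.6, 25.5 and 31.3 CPM in female replicates 1 to 4. Female replicate 1 was highest, and Female replicate 3 was level with Male replicate 3 at the bottom.

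Fzd1, Fzd4 and Fzd8 formed a middle group whose neighbours did not keep their order: Fzd1 was above Fzd4 in 5 and Fzd4 above Fzd8 in 6 of 8 libraries. Fzd4, which also binds the non-Wnt ligand Norrin in vessels, had 33.3, 19.9, 31.3 and 34.5 CPM in male replicates 1 to 4, against 30.7, 30.9, 30.4 and 35.9 CPM in female replicates 1 to 4. Fzd1 had 18.8, 11.3, 24.0 and 20.1 CPM in male replicates 1 to 4, against 22.1, 22.9, 21.5 and 26.7 CPM in female replicates 1 to 4. In both, Male replicate 2 was lowest and Female replicate 4 highest. Fzd8 had 15.2, 9.44, 15.8 and 13.2 CPM in male replicates 1 to 4, against 11.8, 13.2, 11.5 and 17.9 CPM in female replicates 1 to 4, with the same libraries at both ends.

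The 5 lower receptors averaged 1.55 to 6.33 TPM. Fzd9 had 6.77, 6.09, 5.92 and 6.87 CPM in male replicates 1 to 4, against 5.34, 6.04, 6.28 and 5.98 CPM in female replicates 1 to 4. Fzd3, which guides axons and cell polarity, had 5.61, 3.88, 5.48 and 4.77 CPM in male replicates 1 to 4, against 5.55, 5.66, 6.08 and 7.32 CPM in female replicates 1 to 4. Its lowest library was Male replicate 2 and its highest Female replicate 4. Its partner in polarity, Fzd6, had 4.25, 3.99, 3.62 and 4.20 CPM in male replicates 1 to 4, against 5.07, 4.67, 3.65 and 4.77 CPM in female replicates 1 to 4. Fzd5, needed for yolk sac and placental vessels, had 4.42, 2.54, 5.48 and 4.84 CPM in male replicates 1 to 4, against 3.82, 4.01, 4.76 and 5.69 CPM in female replicates 1 to 4. Fzd10 had 3.03, 1.02, 1.68 and 2.03 CPM in male replicates 1 to 4, against 1.63, 2.16, 2.23 and 3.13 CPM in female replicates 1 to 4. Female replicate 4 was highest and Male replicate 2 lowest for both Fzd5 and Fzd10. Fzd5 shares 2357 exon bases with Gm38058 on the opposite strand, and without a stated strand setting their reads may not be told apart; Gm38058 had 9 counts over all libraries.

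Both co-receptors were present. Lrp6 averaged 8.96 ± 1.81 TPM and Lrp5 7.33 ± 2.87 TPM (SD, n = 8 each), Lrp6 being higher in 7 of 8 libraries. Lrp6, which the early embryo needs for canonical signalling, varied little, at 53.2, 47.8, 54.2 and 54.2 CPM in male replicates 1 to 4, against 50.5, 50.8, 46.8 and 56.1 CPM in female replicates 1 to 4. Lrp5, known for its part in bone and eye, varied more, at 34.3, 16.1, 38.0 and 28.8 CPM in male replicates 1 to 4, against 22.2, 26.5, 27.7 and 41.1 CPM in female replicates 1 to 4. Female replicate 4 was highest for both, while the lowest library was Female replicate 3 for Lrp6 and Male replicate 2 for Lrp5. The sexes overlapped for both.

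Sfrp5 and Sfrp1 made up nearly all of the Sfrp message, 57.2% and 38.5% of its mean TPM, and kept that order in 8 of 8 libraries. Sfrp5, a gene of foregut endoderm and of the venous pole of the heart, averaged 52.6 ± 15.2 TPM and had 30.6, 46.7, 30.2 and 41.1 CPM in male replicates 1 to 4, against 67.1, 43.5, 55.7 and 31.1 CPM in female replicates 1 to 4. Female replicates 1 and 3 were highest, and Female replicate 4 lay with Male replicates 1 and 3 at the bottom. Sfrp1 averaged 35.4 ± 4.91 TPM and was steady, at 64.1, 73.8, 67.1 and 67.3 CPM in male replicates 1 to 4, against 62.6, 65.1, 62.1 and 66.5 CPM in female replicates 1 to 4. Sfrp2 was much lower, at 2.69, 5.10, 2.12 and 2.502 CPM in male replicates 1 to 4, against 4.99, 3.57, 2.43 and 2.58 CPM in female replicates 1 to 4. Male replicate 2 and Female replicate 1 were highest for Sfrp2. Sfrp4 had a mean of 0.372 CPM, with 7 to 36 counts per library.

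Dkk3 dominated its family, with 91.1% of the mean Dkk TPM. It is the divergent member, which is not an established blocker of Lrp co-receptors. Dkk3 averaged 55.2 ± 14.1 TPM and had 83.4, 68.6, 89.4 and 78.8 CPM in male replicates 1 to 4, against 57.4, 86.5, 72.2 and 86.9 CPM in female replicates 1 to 4. The lowest library was Female replicate 1, followed by Male replicate 2. The Lrp blocker Dkk1 had 5.34, 4.05, 4.42 and 3.27 CPM in male replicates 1 to 4, against 3.58, 3.36, 5.37 and 4.86 CPM in female replicates 1 to 4. Dkk2, likewise a ligand of Lrp5 and Lrp6, had 2.14, 3.15, 1.59 and 1.53 CPM in male replicates 1 to 4, against 1.202, 0.987, 3.14 and 1.77 CPM in female replicates 1 to 4. The sexes overlapped for all 3, and Dkk4 had 4 counts in all.

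Rspo3 was the main R-spondin, 93.2% of the mean R-spondin TPM. This activator, which vessels and the second heart field need in the mouse, averaged 34.7 ± 1.82 TPM (SD, n = 8), the smallest spread in TPM for its level among the members. In CPM it had 44.0, 70.0, 41.1 and 43.6 CPM in male replicates 1 to 4, against 43.8, 46.3, 44.9 and 40.0 CPM in female replicates 1 to 4. Male replicate 2 stood far above the other 7 in CPM, yet at 35.8 TPM it lay within their range of 31.4 to 37.2 TPM, so its excess depends on the scale. Rspo1, an activator of ovary development, had 0.680, 2.24, 1.81 and 1.63 CPM in male replicates 1 to 4, against 2.72, 1.27, 1.77 and 1.48 CPM in female replicates 1 to 4. Rspo2 had a mean of 0.576 CPM, with 1 to 44 counts per library, and Rspo4 had 35 counts in all.

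No member passed the test between male and female hearts. Of the 43, 31 passed the filter on low counts and were tested, and edgeR's quasi-likelihood test over all 16377 tested genes called 0 of them at an adjusted p below 0.05. The background was 0.0366%, 6 of all genes tested, of which 5 (0.0305%) were higher and 1 (0.00611%) lower in males. At an unadjusted p below 0.05 there were 0 members, against 2.24% of all genes (367). DESeq2, limma-voom and limma on the authors' normalized values also called 0, with 0 at an unadjusted p below 0.05 each. Male and female CPM overlapped for all 31, while 2.25% of all genes tested had groups that did not overlap, 1.14% with males higher and 1.11% with females higher. Of the 31, 12 had a higher and 19 a lower value in males. The median of their log2 fold changes, male minus female, was -0.03, beside 0.01 over all genes tested. A p above the threshold with 4 libraries a sex does not show that the levels are alike. In bulk tissue, fewer cells of a type and less RNA per cell cannot be told apart.

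The members with the smallest p in each direction had adjusted p-values far above the threshold. Wnt2b, at 1.98 ± 0.466 CPM in males and 1.37 ± 0.319 CPM in females (SD, n = 4 each), had a log2 fold change of 0.53 ± 0.24 (SE). Sfrp1, at 68.1 ± 4.07 CPM in males and 64.0 ± 2.07 CPM in females, had a log2 fold change of 0.09 ± 0.07. On the lower side, Sfrp4, at 0.289 ± 0.0524 CPM in males and 0.454 ± 0.147 CPM in females, had -0.67 ± 0.32, and Fzd3, at 4.93 ± 0.796 CPM in males and 6.15 ± 0.807 CPM in females, had -0.32 ± 0.16. Unadjusted p-values in edgeR were 0.0579, 0.268, 0.0666 and 0.0704 in that order, and adjusted p = 0.9995 for each. Among all 31, log2 fold changes ran from -0.79 ± 0.78 for Wnt6 to that of Wnt2b, and none was called. Of the 6 members most abundant per length, Wnt2 (-0.17 ± 0.19), Fzd2 (0.03 ± 0.08) and Dkk3 (0.08 ± 0.14) had values within 1 SE of 0, while Sfrp5 (-0.41 ± 0.24), Sfrp1 (0.09 ± 0.07) and Rspo3 (0.18 ± 0.17) did not.

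**Figure D2:**
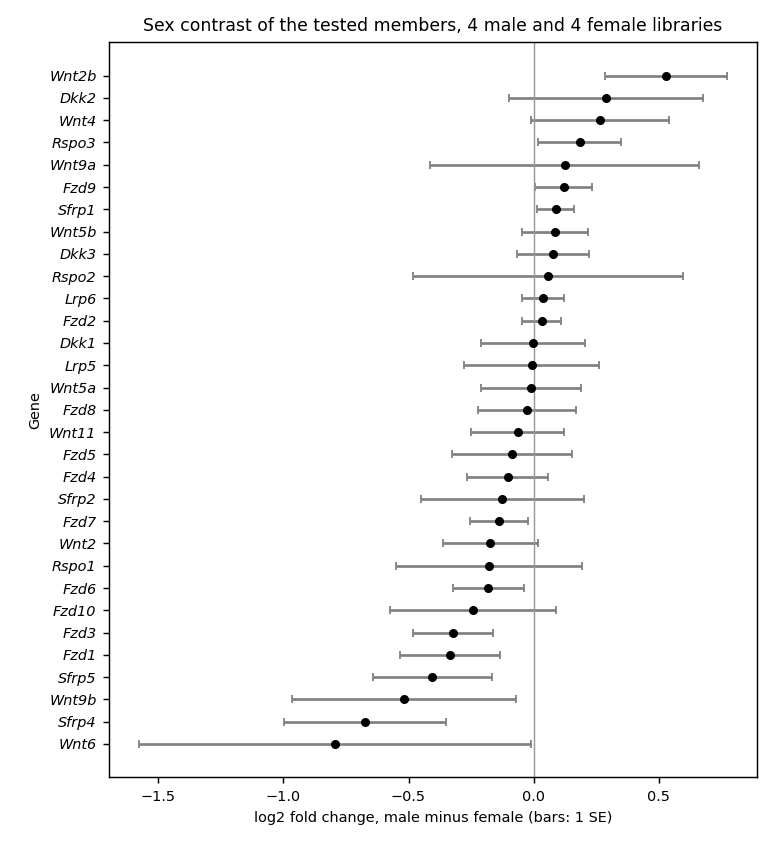
Log2 fold change, male minus female, of the 31 tested members with bars of 1 SE, from edgeR on 4 male and 4 female libraries. Values run from -0.79 (Wnt6) to 0.53 (Wnt2b), and none passed the test.

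The rest of the pathway likewise held no call between the sexes. Of 6 genes of ligand secretion and inactivation, 6 were tested and 0 called in either direction. The 2 most abundant were Gpc3, a cell surface proteoglycan, with 600.2 ± 72.9 CPM in males and 589 ± 47.1 CPM in females (SD, n = 4 each), and Wls, which carries ligands to the cell surface, with 99.1 ± 12.2 CPM in males and 101 ± 11.9 CPM in females. Of 18 further receptors and modulators, 16 were tested and 0 called, 4 higher and 12 lower, with a median of -0.17 for the log2 fold change. The most abundant were Ryk, a kinase-like Wnt receptor, with 131 ± 24.2 CPM in males and 122 ± 9.75 CPM in females, and Bambi, a decoy receptor of TGF-beta signals and a Wnt target, with 115 ± 32.8 CPM in males and 131 ± 9.11 CPM in females. All 22 genes of intracellular transduction were tested and 0 called, 10 higher and 12 lower, with a median of -0.01. Beta-catenin itself, Ctnnb1, had 397, 110.3, 447 and 306 CPM in male replicates 1 to 4, against 326, 375, 334 and 537 CPM in female replicates 1 to 4. Male replicate 2 was far below all others, and the cause was not tested. The kinase Csnk1a1 had 338 ± 10.8 CPM in males and 367 ± 21.5 CPM in females.

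Target genes give a readout of canonical signalling. Of 15, 13 were tested and 0 called, 5 higher and 8 lower, with a median of -0.11 for the log2 fold change. Cyclin Ccnd2, the most abundant, had 831, 1895, 839 and 990.2 CPM in male replicates 1 to 4, against 959, 930.0, 956 and 757 CPM in female replicates 1 to 4. Male replicate 2 lay far above all others. Over the 15 target genes that library was the lowest of 8 in CPM for 7, the highest for 2 and in between for 6. The same count over all genes was not made, and that library stood apart on the first principal component of all tested genes. The count is therefore not read as a result about target genes. Ccnd1 had 51.7 ± 13.9 CPM in males and 50.0 ± 17.7 CPM in females (SD, n = 4 each). Axin2, a feedback inhibitor much used as a readout and named here after its values were seen, had 9.96, 4.02, 8.84 and 6.34 CPM in male replicates 1 to 4, against 7.18, 6.81, 7.20 and 10.7 CPM in female replicates 1 to 4, with overlapping sexes. Sp5, a canonical target named likewise, had 0.374, 0.583, 0.221 and 0.367 CPM in male replicates 1 to 4, against 0.881, 0.504, 1.17 and 0.823 CPM in female replicates 1 to 4. Its log2 fold change was -1.06 ± 0.36 (SE), with an adjusted p = 0.9995 in edgeR; it was 1 of 2 genes of these lists with an unadjusted p below 0.05, beside Bcl9l, a beta-catenin cofactor.

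The members varied between libraries. Over the 27 members with a mean of at least 1 CPM, the median SD of log2(CPM + 1) over 8 libraries was 0.27, beside 0.18 over 13608 genes with such a mean, and 20 of the 27 lay above that second value. An absolute r of at least 0.7 with the first principal component of all tested genes was found for 15 of the 27 members and for 58.5% of the 13608 genes, and with the mitochondrial share for 17 members and 55.9% of genes, so the members' shares were near the background. Wnt4 (r = 0.98), Rspo3 (0.91) and Fzd2 (0.88) lay at one end, and Lrp5 (-0.97), Fzd8 (-0.95), Wnt5a (-0.95) and Fzd5 (-0.92) at the other. Without Male replicate 2 the r of Fzd2 was 0.56, and without Female replicate 1 as well it was 0.12. Over the same 6 libraries Wnt4 had 0.93, Rspo3 0.82, Lrp5 -0.94, Fzd8 -0.97, Wnt5a -0.88 and Fzd5 -0.63. These are descriptions over 8 libraries that differ in depth and makeup, and the component itself was computed from these libraries.

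**Figure D3:**
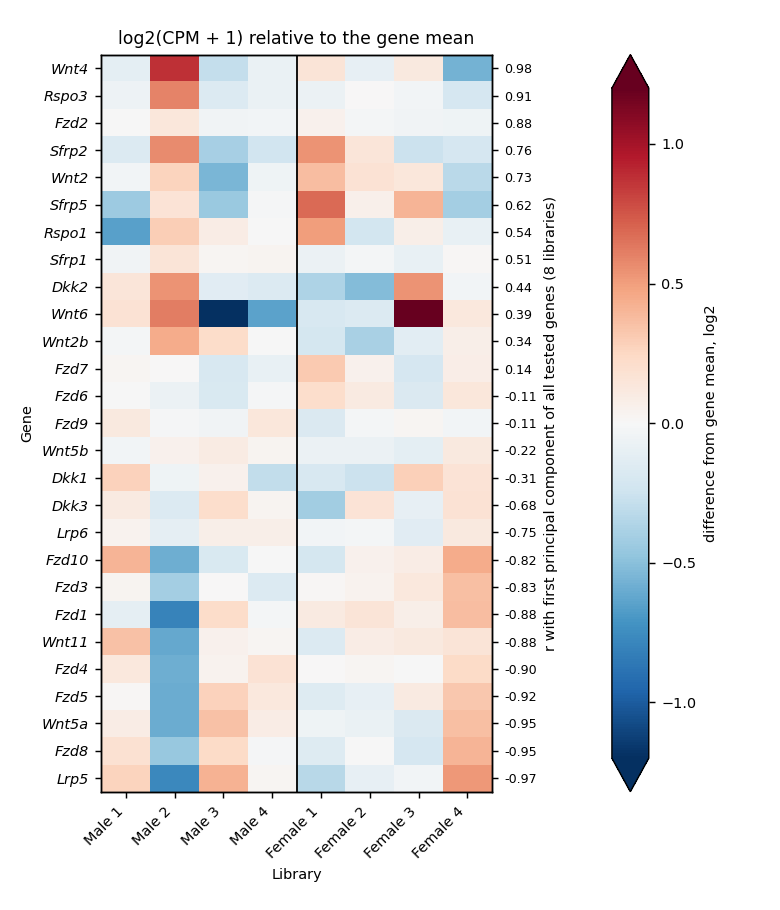
Log2(CPM + 1) of the 27 members relative to each gene's mean, in 4 male (left) and 4 female (right) libraries, with genes ordered by their r with the first principal component of all tested genes (right axis). Wnt4 and Rspo3 are high and Lrp5, Fzd8 and Wnt5a low in Male replicate 2, with Female replicate 4 the reverse. Wnt6 passes the upper end of the colour scale in Female replicate 3 and the lower end in Male replicate 3.

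Pairs of members were then compared over the 8 libraries. Of 351 pairs, 15 passed an exact 2-sided permutation test of r with Benjamini-Hochberg adjustment over the pairs, 7 positive and 8 negative, among 12 genes. The weakest of them had an absolute r of 0.874. At that size or above lay 7.69% of the member pairs (27), below the background of 10.6% of all pairs of genes with a mean of at least 1 CPM. Wnt4 and Wnt5a moved in opposite directions with r = -0.96 (exact permutation p = 0.000918, adjusted p = 0.0297). Their rho was -0.88 (exact permutation p = 0.00724). Their r was -0.85 without the 2 libraries farthest from the median of the first gene named, here Wnt4. The 2 libraries left out can thus differ between pairs, and a library extreme only for the second gene stays in. Fzd8 and Lrp5 moved together with r = 0.95 (exact permutation p = 0.000496, adjusted p = 0.0297), with rho = 0.88 (exact permutation p = 0.00724) and r = 0.87 without 2 libraries. Wnt4 and Fzd8 moved in opposite directions, with r = -0.95 (exact permutation p = 7.44e-05, adjusted p = 0.0261), rho = -0.98 (exact permutation p = 0.000397) and r = -0.92 without 2 libraries. The other pairs of the 8 largest were Wnt5a with Fzd8 (0.95), Wnt4 with Lrp5 (-0.95), Lrp5 with Fzd5 (0.94), Wnt5a with Lrp5 (0.94) and Fzd2 with Fzd5 (-0.94). Without 2 libraries these 5 had an absolute r of 0.750 to 0.867. All genes of the 8 pairs had an absolute r of 0.88 (Fzd2) to 0.98 (Wnt4) with the first principal component. With the mitochondrial share it was 0.79 (Fzd2) to 0.99 (Fzd8). The 8 pairs are therefore not read as links between genes apart from that component.

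The count of called pairs changed with the libraries used and with the scale. With Spearman's rho 0 pairs passed (65 with an unadjusted p below 0.05, smallest adjusted p = 0.0783). No pair passed without Male replicate 1, 2, 3 or 4 in turn, or without Female replicate 1 or 4. The smallest adjusted p-values of the exact permutation test in those fits were 0.0522 to 0.101. By contrast, 14 pairs passed without Female replicate 2 and 21 without Female replicate 3, of which 11 and 14 were among the 15. Fewer libraries have fewer orders, which raises the smallest p that the test can give. A count of 0 there does not show that the pairs rest on the library left out. Values centred within each sex, likewise tested with fewer orders (576), gave 0 pairs, and log2 TPM gave 128. Without Male replicate 2, Wnt4 with Fzd8 had -0.95, Fzd8 with Lrp5 0.92 and Wnt4 with Wnt5a -0.88. Fzd7 with Fzd6, named after its values were seen, lay off the main component (r of 0.14 and -0.11 with it) and had r = 0.92 over 8 libraries (exact permutation p = 0.00057, adjusted p = 0.0297), rho = 0.95 (exact permutation p = 0.00114) and r = 0.95 without Male replicate 2.

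**Figure D4:**
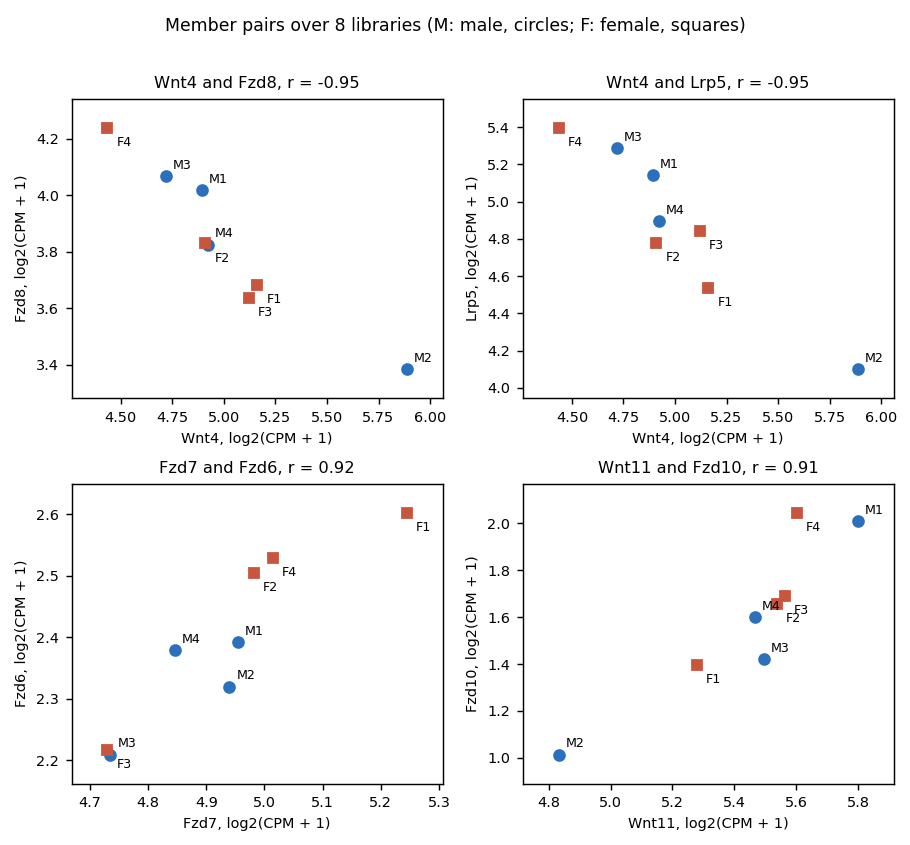
Log2(CPM + 1) of 4 member pairs that passed the test over 8 libraries, with male libraries as circles and female ones as squares. Male replicate 2 lies at one end in 3 panels, while Fzd7 and Fzd6 line up with Male replicate 2 in the middle.

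Markers of the cell types that a dissected heart can hold were set beside the members. How many of all genes reach the r values below was not counted, so these are not shown to be particular to the members. No marker of the 10 lists was at 0 in all libraries. None of the genes in the lists named next was called between the sexes, but some directions were uneven. Of the cardiomyocyte genes, 9 were higher and 1 lower in males (median log2 fold change 0.23). Of the second heart field genes 1 was higher and 7 lower (-0.23), and of the foregut genes 1 and 14 (-0.73). Endocardial and endothelial genes were split 5 and 5. Whether tissue makeup differed between the sexes was not tested. The mean of the 10 cardiomyocyte genes had r = -0.94 with Fzd1, -0.89 with Fzd3 and 0.85 with Rspo3 over 8 libraries. Without Male replicate 2 these were -0.89, -0.73 and 0.57. The 8 genes of second heart field and pharyngeal mesoderm summed to 67.3 to 121.8 CPM in males and 80.9 to 111.7 CPM in females, and over 8 libraries their mean had r = 0.94 with Sfrp2, 0.85 with Wnt2 and -0.87 with Lrp5. Without Male replicate 2 and Female replicate 1 these were 0.75, 0.80 and -0.59. The 15 foregut and pharyngeal genes summed to 569.8 CPM in Male replicate 2, 239.5 to 295 CPM in the other males and 251 to 477 CPM in females. Their mean had r = 0.85 with Sfrp5 and -0.94 with Dkk3. Without Male replicate 2 these were 0.88 and -0.94, and without Female replicate 1 as well they were 0.77 and -0.75. The value with Dkk3 was not particular to foregut: 10 genes of liver and yolk sac had -0.90 with it over 8 libraries. Without Male replicate 2 that was -0.90, and without Female replicate 1 as well -0.48. They summed to 6.26 to 43.6 CPM in males and 4.66 to 86.5 CPM in females. The 10 cushion mesenchyme genes, at 702 to 999 CPM in males and 810 to 965 CPM in females, had r = 0.96 with Lrp5, 0.92 with Fzd5 and -0.92 with Sfrp2. Without the same 2 libraries they were 0.89, 0.80 and -0.63. The 10 genes of endocardium and endothelium, at 851 to 997 CPM in males and 818 to 1016 CPM in females, had 0.96 with Fzd8 and -0.89 with Wnt4, and 0.99 and -0.93 without them. Epicardial genes (9, at 430 to 455 CPM in males and 405 to 442 CPM in females) had -0.88 with Wnt2 in both sets of libraries. That was not particular to them: 10 genes of neural tube and surface ectoderm, of which 4 passed the filter on low counts, had -0.91 and -0.88 with Wnt2. Neural crest and primitive blood genes each had an absolute r of at least 0.7 with 4 of the 27 members. These values describe the libraries, and the part of each cell type in the levels was not tested.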

How the data were processed

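Messenger RNA of 8 embryonic heart libraries was measured by RNA sequencing (4 male, 4 female). The authors deposited raw counts per gene. The submitters' processing notes name GRCm38 (mm10) and the tools STAR 2.5.2b, Trimmomatic 0.36 and Subread 1.5.2 (featureCounts). The sources used here do not give annotation release, strand setting or treatment of multiply mapped reads. A second deposited table holds a normalized signal, the counts divided by 1 factor per library, for 16460 genes. Symbols were found for 48970 of 49315 identifiers.

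The main test was the robust quasi-likelihood test of edgeR 4.0.16 (R 4.3.3), 2-sided and male minus female, after TMM scaling and filterByExpr at a minimum of 10 counts, with Benjamini-Hochberg adjustment over 16377 genes. The fit was tested on simulated data with known changes. TPM were computed from counts and the gene lengths of the deposited tables. Correlations used log2(CPM + 1) and all 40320 orders of the libraries, in Python 3.11.15 with numpy 2.4.6. Alternatives used DESeq2 1.42.0 and limma 3.58.1. Members and lists were chosen with earlier results of these data known. Values are given for each member with a mean of at least 1 CPM; folds for called members and the 2 with the smallest p in each direction; of other lists, called genes and the 2 most abundant. A gene's TPM uses 1 length for all its isoforms. Same-numbered male and female libraries did not deviate together, so numbers were not used as pairs. Total counts per library, 20105913 to 51134291, set the counting error of low members.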

Additional observations from a re-analysis of the deposited data

Results flagged for a closer look

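Of 54 groups of 4 libraries examined (27 members in each sex), 6 held a library whose gap to the others took up most of the group's range. Chance flags about 1 group in 20 where groups are independent, but many members varied together. The share flagged over all genes was not counted, so the 6 are not read as a result about the members. Male replicate 2 was the library in 3 of the 6 groups. It had 70.0 CPM of Rspo3 against 41.1 to 44.0 CPM in the other males, 58.2 CPM of Wnt4 against 25.3 to 29.3 CPM, and 47.8 CPM of Lrp6 against 53.2 to 54.2 CPM. In TPM its Rspo3 lay inside the range of the others (35.8 against 33.4 to 37.2 TPM), while its Wnt4 was above them on that scale too (22.0 against 15.5 to 17.8 TPM). Its Lrp6 was low only among the males, since Female replicate 3 had 46.8 CPM. Female replicate 4 had 35.9 CPM of Fzd4 against 30.4 to 30.9 CPM in the other females, and 3.86 CPM of Wnt5b against 3.14 to 3.26 CPM. Female replicate 3 had 6.39 CPM of Wnt6 against 1.42 to 2.01 CPM.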

How the results depend on the processing

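No member was called under any alternative run for the sex contrast, and the count of all genes called ran from 5 to 9. Wnt2b, Sfrp1, Sfrp4 and Fzd3, the 2 members with the smallest p in each direction, kept their direction in every fit that tested them. Of 27 to 42 members tested, 10 to 17 had higher values in males and 0 to 2 an unadjusted p below 0.05. With the replicate number as a block, 5 genes and 0 members were called and 13 members had higher values in males; same-numbered libraries had correlations of their deviations of -0.49, 0.02, -0.41 and 0.15, so the numbers were not taken as pairs. Leaving out Male replicate 2 and Female replicate 1 together, chosen after seeing the data, called 0 members. The count of 15 covarying pairs depended on the settings: 128 with log2 TPM and 8 with log2 TPM without Male replicate 2 (chosen after seeing the data), 0 with Spearman's rho, 0 with values centred within each sex (576 orders), and 0 to 21 leaving out 1 library, against 15 with pseudocounts of 0.5 and 2 CPM. With a library left out or values centred, the test has fewer orders and a larger smallest possible p, which can lower the count. The cause was not tested. Of 26 neighbours in the order by TPM, 5 kept it in all libraries, and 4 to 6 under the alternatives. Depth limits statements on the 12 untested members, which had at most 61 counts in all.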

Other observations

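Ctnnb1 had 33.6 TPM in Male replicate 2, against 139 to 285 TPM in the other 7 libraries. In the same library the target Ccnd2 had 319 TPM, against 219 to 249.5 TPM. Some other targets lay the other way: Axin2 had 1.16 TPM there, against 2.73 to 5.36 TPM, Ccnd1 11.7 TPM, against 18.5 to 44.5 TPM, and Myc 5.09 TPM, against 12.7 to 21.5 TPM. Low TPM in that library was shared by most members. Over the 15 target genes it was the lowest in TPM for 8, the highest for 1 and in between for 6. In CPM, too, that library was the lowest for Ctnnb1, Axin2, Ccnd1 and Myc and the highest for Ccnd2. There Axin2 had 4.02 against 6.34 to 10.7 CPM, Ccnd1 34.7 against 36.5 to 75.9 CPM and Myc 8.74 against 14.5 to 22.7 CPM. These genes were named after their values were seen, and the same count over all genes was not made. No change of signalling is read from them, and the cause was not tested.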
